A study of Mus musculus with 7 samples.

Results

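The 37 genes described here encode 27 neuropeptide precursors, 4 granins, 5 enzymes that turn precursors into active peptides and Pcsk1n, an inhibitor of the convertase encoded by Pcsk1. They were chosen by symbol, each symbol matched 1 row of the gene list, and they are 37 of 32285 genes measured. Gene expression was measured by single-nucleus RNA sequencing in the posterolateral cortical amygdala (plCoA), an olfactory area of the mouse brain, in its anterior domain (aplCoA) and its posterior domain (pplCoA). All samples came from male C57BL6J mice aged 8 weeks, with no genetic manipulation and no treatment that differed between groups, and every sample pooled tissue from several animals, which had been kept alone with little sensory input for a day. Each domain had 3 replicates. There were 7 libraries, 2 of them from replicate 1 of aplCoA, and their counts were added together. The labels do not say which mice went into which pool, so that p-values measure the spread between pools.

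Neuropeptides are cut from larger precursor proteins inside dense-core vesicles and are released more slowly and act over longer distances than fast transmitters. Granins are acidic proteins that help to form these vesicles and are themselves cut into peptides. In the vesicle, the proprotein convertases Pcsk1, Pcsk2 and Pcsk5 cut precursors at basic residues, carboxypeptidase E (Cpe) trims the cut ends, and Pam adds the terminal amide that many peptides need for activity. In cortex-like areas, somatostatin, vasoactive intestinal peptide and neuropeptide Y are long-used marks of types of inhibitory interneurons, while other peptides are made by excitatory projection neurons.

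Levels are given in CPM, the count of UMIs (unique molecular identifiers, each standing for 1 captured RNA molecule) scaled to 1000000 UMIs of the same class and replicate. Of 46403 nuclei kept, 20046 fell in clusters named glutamatergic and 5100 in clusters named GABAergic by marker genes, with median depths of 12229 and 7917 UMIs. Clusters were made without the 37 genes, so that none of them had a part in naming a class. Libraries held 50812605 to 129624583 UMIs in all, and at most 0.455% of the nuclear barcodes of a library occurred in another. Most of these RNAs were at a higher level outside nuclei than in neurons, some of them from few UMIs (8 for Oxt). In barcodes under 100 UMIs, which hold free RNA, the mean level was higher than in glutamatergic nuclei for 34 of the 37 genes, higher than in GABAergic nuclei for 31 and higher than in both for 28. Levels were therefore set beside those of microglia, which should make few neuropeptides. Microglia were sequenced to a lower median depth of 3182 UMIs, and for rare peptides some of their replicates held no UMI. Glutamatergic nuclei stood above microglia in all 6 replicates for 14 genes, in none for 3 and in some for 20, and GABAergic nuclei stood above them in all 6 for 20 genes and in some for the other 17. The counts beside free RNA and microglia were not made over all genes, so they do not show whether the members differ from other genes. A sum over nuclei does not tell fewer nuclei that express a gene from less RNA in each.

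Sst, the precursor of somatostatin, was highest in GABAergic nuclei among the 10 classes, with a lowest, median and highest replicate of 66.9, 140 and 166, and had 4.79, 6.28 and 13.8 in glutamatergic nuclei. Vip, the precursor of vasoactive intestinal peptide, had 107, 219 and 276 in GABAergic nuclei against 2.32, 3.24 and 9.33 in glutamatergic nuclei. The groups did not overlap for either gene, and for both the glutamatergic level was below that of microglia in every replicate, as it was for Tac2, which encodes neurokinin B. Free RNA held a mean of 340 ± 153 for Sst and 204 ± 141 for Vip (SD, n = 6 replicates), and its part in the glutamatergic values was not tested. After each nucleus was thinned to 2000 UMIs, 12.4% of GABAergic nuclei held a UMI of Sst, against 1.77% of glutamatergic nuclei and 5.34% of microglia. Without thinning the shares were 23.5%, 9.04% and 8.33%, at median depths of 7917, 12229 and 3182 UMIs. The glutamatergic share thus passed the microglial share only where nuclei were read to unequal depth. Thinning evens out depth but not the part of free RNA in each class, which was not measured. Microglia are therefore no exact baseline, here or below.

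Between the neuron classes, 31 of the 33 member genes with enough counts to be tested passed an adjusted p of 0.05, 13 higher in glutamatergic and 18 higher in GABAergic nuclei (edgeR quasi-likelihood test with the replicate as a block, Benjamini-Hochberg adjustment over 17952 genes). Among all genes tested, 63.7% passed, with 31.3% of those tested higher in glutamatergic and 32.5% higher in GABAergic nuclei. The median log2 difference, glutamatergic minus GABAergic, was -0.71 over the members and -0.02 over all genes. Gal, Oxt, Avp and Edn3 had too few UMIs to be tested. With each nucleus thinned to 2000 UMIs, 23 members had enough counts to be tested and 21 passed, all but Nucb2 and Cartpt. The share of all genes that passed after thinning is not given, so this count does not set the members apart from other genes.

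Of the precursors, 11 were higher in GABAergic nuclei by at least as much as Tac1. The log2 difference was -5.40 ± 0.29 (SE) for Vip (edgeR adjusted p = 1.03e-07), -5.08 ± 0.22 for Pnoc, the precursor of nociceptin (edgeR adjusted p = 2.22e-08), and -4.21 ± 0.21 for Npy, the precursor of neuropeptide Y (edgeR adjusted p = 5.61e-08). Pnoc had 21.6, 30.8 and 40.4 in GABAergic nuclei as its lowest, median and highest replicate, and 0.289, 0.653 and 1.35 in glutamatergic nuclei. Npy had 18.1, 43.7 and 52.6 against 1.1, 1.55 and 3.68. For both genes the lowest GABAergic replicate lay far above the highest glutamatergic one. The differences of Tac2, Crh (corticotropin-releasing hormone), Pthlh (parathyroid hormone-like hormone), Cort (cortistatin) and Sst lay between -4.74 and -3.94. Smaller differences in the same direction were those of Prok2 (prokineticin 2) with -2.54, Penk (enkephalins) with -1.74 and Tac1 (substance P) with -1.49. Nppc, which encodes C-type natriuretic peptide, and Cck, which encodes cholecystokinin, differed by -0.82 and -0.66. Pthlh, Prok2 and Nppc had too few UMIs to be tested after thinning. Pthlh had too few UMIs in glutamatergic nuclei for a domain test there, and met the count filter between classes only through GABAergic nuclei.

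Another 8 precursors were higher in glutamatergic nuclei. Adcyap1, the precursor of the peptide PACAP, had 0.952, 3.31 and 6.92 as the lowest, median and highest glutamatergic replicate and 0, 0.391 and 1.2 in GABAergic nuclei, a log2 difference of 2.79 ± 0.25 (edgeR adjusted p = 4.07e-06). The lowest glutamatergic and the highest GABAergic replicates of Adcyap1 overlapped. The log2 differences of Trh (thyrotropin-releasing hormone), Ucn (urocortin), Grp (gastrin-releasing peptide) and Nts (neurotensin) lay between 1.55 and 2.19. Those of Pdyn (dynorphins), Cartpt (the CART peptide) and Nucb2 (nesfatin) were 0.95, 0.77 and 0.34. Cartpt and Nucb2 did not pass after thinning (0.59 and 0.27, edgeR adjusted p = 0.192 and 0.11). Trh, Ucn, Grp, Nts and Pdyn had too few UMIs to be tested after thinning. In glutamatergic nuclei Trh, Ucn and Pdyn stood above microglia in 4 of 6 replicates and Grp in 3. Adcyap1, Nts, Cartpt and Nucb2 did so in all 6. Nmb and Pomc, the precursors of neuromedin B and of melanocortins and endorphin, did not pass (log2 differences 0.11 and 0.05, edgeR adjusted p = 0.688 and 0.849). Adcyap1, Trh, Ucn, Grp, Nts and Pdyn had too few UMIs in GABAergic nuclei for a domain test there. They met the count filter between classes only through glutamatergic nuclei, where they were higher. Pdyn rested on few UMIs, and its adjusted p rose to 0.0602 or 0.0978 with replicate 2 or 3 of aplCoA left out and to 0.0877 or 0.051 with replicate 1 or 3 of pplCoA left out. Cartpt changed direction to -0.16 where classes were set by the marker UMIs of each nucleus instead of by cluster (edgeR adjusted p = 0.659).

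**Figure D1:**
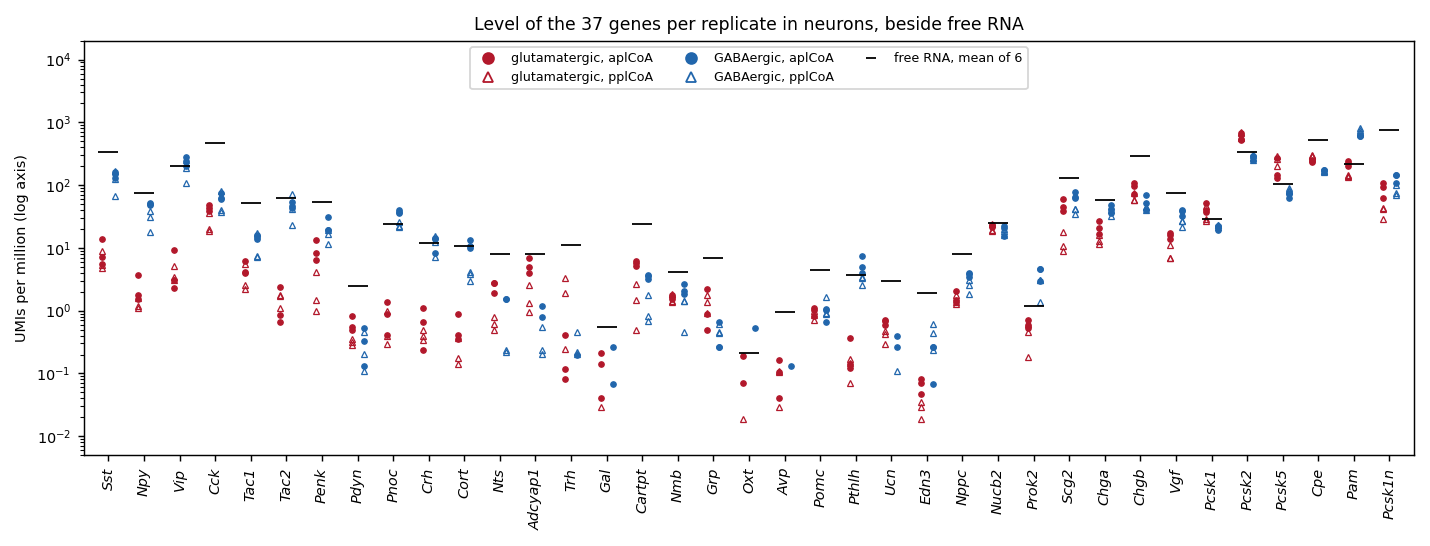
Level of each of the 37 genes in CPM, on a log axis, in glutamatergic and GABAergic nuclei, with 1 point per replicate (filled circles aplCoA, open triangles pplCoA) and a bar for the mean of free RNA; replicates at 0 are not drawn. Vip runs from 107 to 276 in GABAergic nuclei and from 2.32 to 9.33 in glutamatergic nuclei, while for Pcsk2 the glutamatergic replicates, 529 to 695, stand above the GABAergic ones, 247 to 298.

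The enzymes split between the classes. The 3 convertases and Cpe were higher in glutamatergic nuclei. Pcsk2, which finishes the cleavage of many neuropeptides, had a lowest, median and highest replicate of 529, 613 and 695 in glutamatergic and 247, 279 and 298 in GABAergic nuclei, a log2 difference of 1.31 ± 0.08 (edgeR adjusted p = 3.41e-07). Pcsk5 had 131, 230 and 293 against 63.1, 78.1 and 88.4, and Cpe had 234, 271 and 307 against 161, 169 and 173. Neither gene overlapped between classes, and the log2 differences were 1.61 ± 0.13 and 0.83 ± 0.07. Pcsk1 differed by 0.95 ± 0.11. Pam, which amidates peptides, went the other way: it had 600, 667 and 802 in GABAergic nuclei and 133, 172 and 240 in glutamatergic nuclei, a log2 difference of -1.79 ± 0.16 (edgeR adjusted p = 5.19e-06). A UMI of Pam was found in 67.1% of GABAergic nuclei thinned to 2000 UMIs, in 26.8% of glutamatergic nuclei and in 3.41% of microglia. The GABAergic level of Pam was 3.2 times that of free RNA, and the glutamatergic levels of Pcsk5, Pcsk2 and Pcsk1 were 2.08, 1.82 and 1.33 times theirs. Other levels were below free RNA: glutamatergic Pam at 0.848 times it, Cpe at 0.523 times it in glutamatergic and 0.328 in GABAergic nuclei, and GABAergic Pcsk2, Pcsk1 and Pcsk5 at 0.815, 0.761 and 0.736 times theirs. Pcsk1n was higher in GABAergic nuclei by 0.71 on the log2 scale, with replicates of 69.8 to 147 against 28.7 to 107, which overlapped. Within every replicate its GABAergic level was the higher.

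Among the granins, Chga (chromogranin A), Vgf and Scg2 (secretogranin II) were higher in GABAergic nuclei and Chgb (chromogranin B) in glutamatergic nuclei. Chga had 32.7, 40 and 48.3 as the lowest, median and highest GABAergic replicate and 11.6, 16.4 and 26.7 in glutamatergic nuclei, and Vgf had 21.8, 29.7 and 39.9 against 6.9, 12.5 and 17.5. Neither overlapped between classes, with log2 differences of -1.07 ± 0.11 and -1.22 ± 0.10. Scg2 had 35.3, 52.2 and 76.7 against 8.97, 28.5 and 60.5, a difference of -0.86 ± 0.20 (edgeR adjusted p = 0.00385) between classes that overlapped. Within every replicate the GABAergic level of Scg2 was the higher. Chgb had 39.5, 44.7 and 68.9 in GABAergic and 57.7, 73.8 and 109 in glutamatergic nuclei, a difference of 0.85 ± 0.08.

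Several of these genes carry a full cyclic AMP response element, the site bound by CREB and related factors, close to their start. The letters TGACGTCA, which read the same on both strands, were searched in the 250 bases before the start of each gene. They were found in 6 of the 31 members that have an entry in the RefSeq promoter table, namely Scg2, Cartpt, Chgb, Sst, Pcsk1 and Ucn, and in 1.77% of 27025 genes in that table. The 120 bases before the start are shown for Scg2 and Cartpt, which were called between domains in both neuron classes, for the granin Chgb and for Sst, with the element in capitals (RefSeq, build GRCm38.p6, each read 5′ to 3′ on the strand of the gene). The match is a property of the letters, and nothing was measured here of any factor that binds them. The element begins 68, 112, 72 and 48 bases before the start in the order shown. The windows are chr1:79440027-79440146 on the minus strand for Scg2, chr13:99900684-99900803 on the minus strand for Cartpt, chr2:132781522-132781641 on the plus strand for Chgb and chr16:23890845-23890964 on the minus strand for Sst.
Scg2: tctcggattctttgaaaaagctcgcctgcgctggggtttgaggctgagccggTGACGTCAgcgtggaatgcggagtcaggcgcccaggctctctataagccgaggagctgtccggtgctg
Cartpt: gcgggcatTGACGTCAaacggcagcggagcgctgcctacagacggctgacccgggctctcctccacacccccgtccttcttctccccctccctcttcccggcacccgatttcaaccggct
Chgb: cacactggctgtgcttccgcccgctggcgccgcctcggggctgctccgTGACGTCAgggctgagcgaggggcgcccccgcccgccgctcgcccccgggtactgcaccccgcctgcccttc
Sst: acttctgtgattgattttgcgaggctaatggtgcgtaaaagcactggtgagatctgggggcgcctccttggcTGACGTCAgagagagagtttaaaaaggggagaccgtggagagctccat

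Not all members were neuronal. Cpe was highest in astrocytes, where its level was 2101 ± 159 (SD, n = 6 replicates) and ranged from 1843 to 2303. Pcsk5 was highest in arachnoid barrier cells (ABCs), the epithelium-like layer of the meninges, with 770 ± 159 and a range of 568 to 1044. Penk also had its highest mean in ABCs, 62.6 ± 37.2, with replicates spread from 10.4 to 125. Edn3, which encodes endothelin 3, was highest in vascular leptomeningeal cells (VLMCs), fibroblasts of the meninges, at 39.7 ± 11.2 with a range of 28.0 to 59.7, while 13 UMIs were counted over all glutamatergic and 12 over all GABAergic nuclei. Oligodendrocyte precursor cells (OPCs) had the highest means of Pcsk1n, 221 ± 58.2, and of Tac1, 16.7 ± 2.67 with a range of 13.9 to 21.6, and held Pcsk2 at 241 ± 10.2 and Chga at 22.1 ± 4.92. VLMCs held Pam at 294 ± 39.7, and ABCs had the highest mean of Nucb2, 28.9 ± 18.3. Trh had its highest mean, 1.85, in mature oligodendrocytes, but this rested on 3 UMIs. For some other precursors a class outside the neurons had the highest mean from few UMIs, with replicates that overlapped those of the neuronal class with the higher mean: Cartpt in macrophages (4.79 ± 7.69, 4 UMIs), Pthlh in ABCs (5 ± 3.6, 18 UMIs), Ucn in ABCs (1.17 ± 1.88, 3 UMIs), and Grp and Pomc in OPCs (1.92 ± 1.11 and 1.1 ± 0.718, 26 and 17 UMIs). Gal (galanin), Oxt (oxytocin) and Avp (vasopressin) had under 100 UMIs over the 10 classes, with 26, 15 and 27 in glutamatergic and 2, 2 and 2 in GABAergic nuclei, and their highest means, in astrocytes, VLMCs and mature oligodendrocytes, rested on 6, 1 and 2 UMIs.

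**Figure D2:**
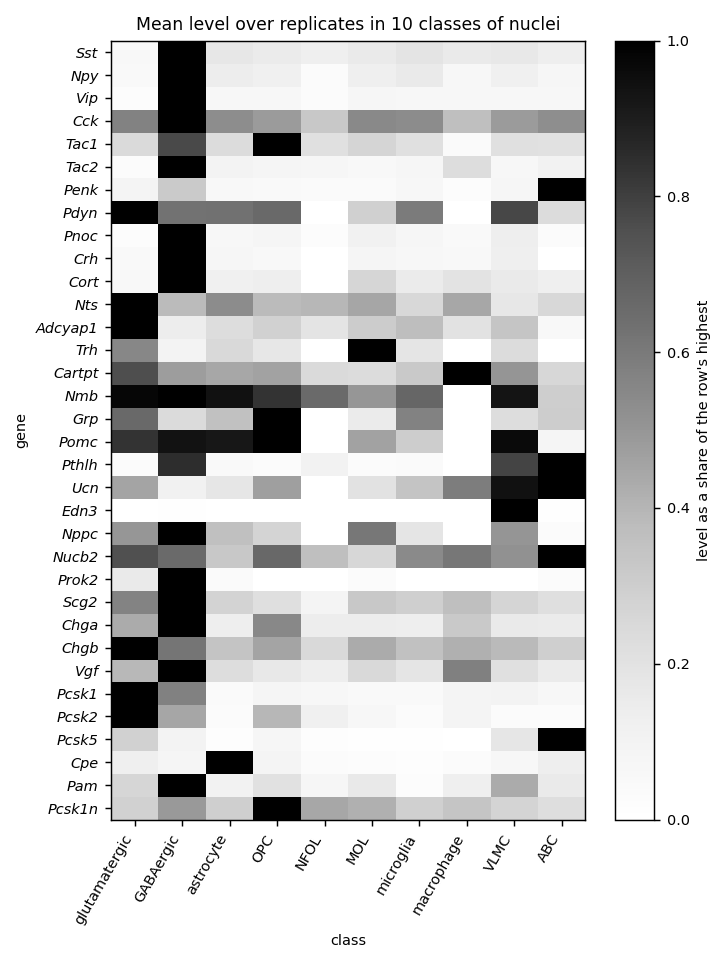
Level of 34 of the 37 genes, those with at least 100 UMIs over the 10 classes, as a share of the highest class in each row (colour), with classes in columns and genes in rows. Rows of precursors such as Vip, Pnoc and Npy are filled mainly in GABAergic nuclei, Cpe in astrocytes, Edn3 in VLMCs and Pcsk5 in ABCs.

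Within GABAergic nuclei, the peptides followed the clusters, which are called here by a leading gene. In the Elfn1-led cluster of 606 nuclei, Sst was at 608 over the pooled nuclei (319 to 914 among replicates), with a UMI in 87.1% of nuclei, and Npy at 153 (60.9 to 204). In the Adra1b-led cluster of 997 nuclei, Vip was at 1392 (661 to 2157 among replicates), with a UMI in 80.4% of nuclei. The same cluster held the highest pooled levels of Tac2 (262), Cck (194), Penk (81) and Crh (72.1) among the 9 GABAergic clusters of at least 100 nuclei. In the Nxph2-led cluster of 900 nuclei, which also held Sst at 109, Tac1 was at 47.5 (24.2 to 60.8) and Cort at 20.1 (4.03 to 44.2). The Kit-led cluster of 895 nuclei, with Ndnf and Lamp5 among its leading genes, held Pam at 998, Pnoc at 82 and Npy at 66.9. Pnoc was highest, at 134, in the Hapln1-led cluster of 171 nuclei, Pthlh, at 40.9 (25.2 to 70.5), in the Mctp2-led cluster of 282 nuclei, and Prok2, at 11.6, in the Hs3st5-led cluster of 718 nuclei. Pcsk2 reached 1295 and Cck 171 in the Syt6-led cluster of 123 nuclei.

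**Figure D3:**
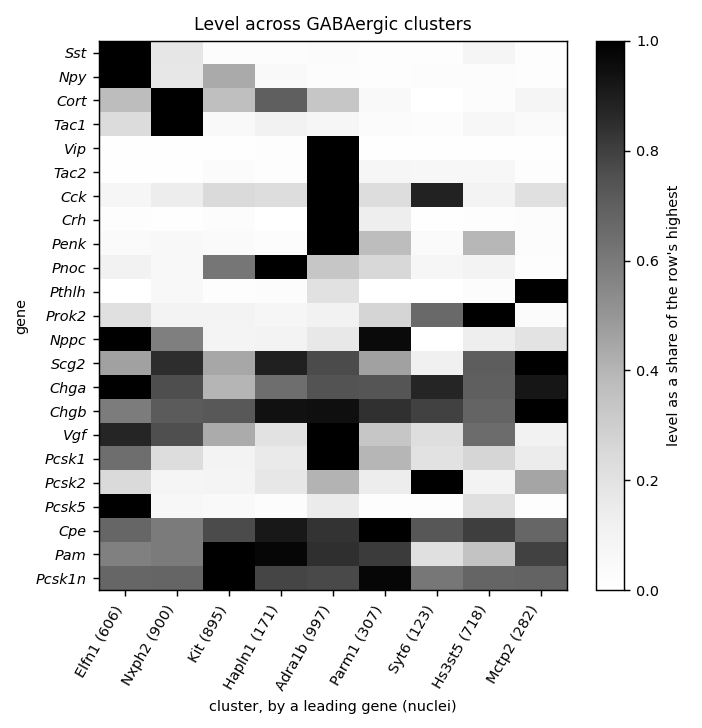
Level of 23 member genes in 9 GABAergic clusters of at least 100 nuclei, named by a leading gene, as a share of the highest cluster in each row (colour). Vip, Tac2, Crh and Penk share the Adra1b-led column, Sst, Npy and Pcsk5 the Elfn1-led column, and Tac1 and Cort the Nxph2-led column.

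The same grouping was seen nucleus by nucleus. The 755 GABAergic nuclei with at least 2 UMIs of Vip held Crh at 88.7 ± 37.8 against 2.37 ± 1.17 in the other GABAergic nuclei (SD over 6 replicates), Tac2 at 292 ± 101 against 15.2 ± 5.64 and Penk at 95.4 ± 30.6 against 9.51 ± 5.46. They also held more of 2 convertases, with Pcsk1 at 63.5 ± 8.75 against 16.9 ± 1.73 and Pcsk2 at 573 ± 28.7 against 236 ± 30.6. Each of these values was higher in all 6 replicates. The 683 GABAergic nuclei with at least 2 UMIs of Sst held Npy at 154 ± 42.5 against 16.7 ± 7.72 and Pcsk5 at 246 ± 69.5 against 43.8 ± 9.4, again in all 6 replicates, while Pam was lower in all 6 (536 ± 33.7 against 713 ± 101). Among glutamatergic nuclei, the 159 with at least 2 UMIs of Cartpt held Scg2 at 133 ± 68.1 against 29.2 ± 20.1 and Pam at 421 ± 107 against 179 ± 45.4, and the 175 with at least 2 UMIs of Tac1 held Scg2 at 138 ± 70.4 against 29.3 ± 20.5. These are descriptions without a test, and nuclei that hold more UMIs are more likely to be picked. Only gene pairs that went the same way in all 6 replicates were listed, so that this agreement was a condition of being named. The fewest glutamatergic nuclei picked in a replicate were 3 for Cartpt and 13 for Tac1.

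Peptide levels also differed among glutamatergic clusters. Scg2 was at 151 in the Ebf1-led cluster of 745 nuclei and at 120 in the Vwa5b1-led cluster of 1843 nuclei, which also held Adcyap1 at 21. Cck was at 97.5 in the Rxfp1-led cluster of 1475 nuclei, Cartpt at 34.7 in the Qrfpr-led cluster of 260 nuclei, and Penk at 49.2 in the Ebf2-led cluster of 600 nuclei. Tac1 (56.4) and Grp (31.1) were highest in the Etv1-led cluster of 434 nuclei. The study names Etv1 as a mark of tissue next to plCoA, and how far these 2 levels come from such tissue was not tested. Pcsk5 was at 719 (572 to 857 among replicates) in the Cpa6-led cluster of 2082 nuclei. The domains differed in their make-up of these clusters: the Rxfp1-led cluster took 10.9% ± 1.81 of aplCoA and 0.961% ± 1.47 of pplCoA glutamatergic nuclei, and the Vwa5b1-led cluster 12% ± 3.26 and 2.52% ± 3.46 (SD, n = 3). The Ccbe1-led cluster of 2018 nuclei took 19.4% ± 13.4 and 1.11% ± 0.35. Fign, which the study also names as a mark of adjacent tissue, was among its leading genes.

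The question of the series, how the 2 domains differ, was asked of these genes in each neuron class. In glutamatergic nuclei, 12 of the 32 members tested passed between domains, 10 with the higher level in aplCoA and 2 in pplCoA (edgeR quasi-likelihood test, Benjamini-Hochberg adjustment over 19170 genes). Of all genes tested, 16.0% passed: aplCoA had the higher level for 7.85% of the genes tested and pplCoA for 8.18%. The median log2 difference, aplCoA minus pplCoA, was 0.53 over the members tested and 0.01 over all genes. Those higher in aplCoA were the precursors Penk, Nts, Cartpt, Adcyap1 and Cck, the granins Scg2, Vgf and Chga, the amidating enzyme Pam and the inhibitor Pcsk1n, and those higher in pplCoA were Cpe and Trh. Avp, Edn3, Gal, Oxt and Pthlh were not tested. Without aplCoA replicate 1 the count fell to 5 and without pplCoA replicate 2 to 7, and without pplCoA replicate 1 it was 15. The shares of all genes that passed in these fits are not given. The counts therefore do not show whether members moved more than other genes.

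Scg2 had 60.5, 44.7 and 39.1 in aplCoA replicates 1 to 3 and 18, 8.97 and 10.6 in pplCoA replicates 1 to 3. The lowest aplCoA replicate was above the highest pplCoA one, and the log2 difference was 1.84 ± 0.24 (edgeR adjusted p = 0.00272). In microglia Scg2 was at 50.5, 6.03 and 12.1 in aplCoA and 18.6, 3.45 and 4.39 in pplCoA, and in free RNA at 167 ± 43.2 and 91.4 ± 35.8, values that moved the same way and whose part in the result was not tested. The share of glutamatergic nuclei with a UMI of Scg2, each thinned to 2000 UMIs, was 9.39% ± 2.16 in aplCoA and 2.25% ± 1.14 in pplCoA, and that of microglia 4.83% ± 4.56 and 1.61% ± 1.84. Leaving out each replicate in turn, the difference lay between 1.65 and 2.21 and passed every time.

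Nts, the precursor of neurotensin, had 2.72, 2.77 and 1.92 in aplCoA and 0.797, 0.606 and 0.499 in pplCoA, a log2 difference of 1.83 ± 0.25 (edgeR adjusted p = 0.00307). Cartpt had 5.81, 6.14 and 5.21 in aplCoA and 1.5, 0.491 and 2.64 in pplCoA, a difference of 1.84 ± 0.38 (edgeR adjusted p = 0.0119). Adcyap1 had 6.92, 4.03 and 4.90 against 2.59, 0.952 and 1.32, a difference of 1.58 ± 0.32 (edgeR adjusted p = 0.0104). None of these 3 genes overlapped between domains. Penk had 13.4, 8.42 and 6.40 in aplCoA and 4.06, 1.47 and 0.998 in pplCoA, a difference of 1.95 ± 0.42 (edgeR adjusted p = 0.0136). Its domains did not overlap either, and replicate 1 was the highest of each. Free RNA moved with all 4: it held Nts at 12.4 ± 4.79 in aplCoA and 3.5 ± 1.82 in pplCoA, Cartpt at 37.9 ± 6.03 and 9.38 ± 2.77, Adcyap1 at 11.9 ± 0.983 and 4.27 ± 0.421, and Penk at 77.7 ± 51.3 and 29.1 ± 7.61. The part of free RNA in these results was not tested. Without aplCoA replicate 1, Cartpt, Adcyap1 and Penk no longer passed (edgeR adjusted p = 0.0539, 0.0599 and 0.0732), and Penk did not pass without pplCoA replicate 2 (edgeR adjusted p = 0.0621).

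Trh was higher in pplCoA, with 0.241, 1.93 and 3.35 there and 0.416, 0.0814 and 0.118 in aplCoA, a log2 difference of -2.86 ± 0.82 (edgeR adjusted p = 0.0418). The domains overlapped, since pplCoA replicate 1 was below aplCoA replicate 1. The call was lost in 5 of the 6 fits that left out 1 replicate, all but that without pplCoA replicate 1, with adjusted p up to 0.15. It was also lost with the replicate number as a block and with aplCoA replicate 1 from library 2 alone (edgeR adjusted p = 0.0932 and 0.131). The highest level of Trh among glutamatergic clusters, 4.1, was in the Ano2-led cluster, which took 27.3% ± 17 of pplCoA and 1.36% ± 1.8 of aplCoA glutamatergic nuclei. Free RNA held Trh at 21.6 ± 18.4 in pplCoA and 0.905 ± 0.178 in aplCoA.

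Cck had 47.6, 43.1 and 38.2 in aplCoA and 18.4, 20.2 and 35.5 in pplCoA, a log2 difference of 0.73 ± 0.21 (edgeR adjusted p = 0.043). Its domains did not overlap, but pplCoA replicate 3 lay close to aplCoA, and the call was kept only without pplCoA replicate 3, with adjusted p up to 0.167 in the other fits. It did not pass with DESeq2 (adjusted p = 0.123). The mean of Cck was 33.8 in glutamatergic nuclei and 31.6 in microglia, and 7.3% and 6.09% of these nuclei held a UMI of it after thinning to 2000 UMIs, against 30.1% and 10.2% without thinning. Pcsk1n had 107, 92.3 and 61.3 in aplCoA and 41.7, 28.7 and 42.8 in pplCoA, a difference of 1.12 ± 0.20 (edgeR adjusted p = 0.00627). Its microglial levels were 141, 39.2 and 44.9 in aplCoA and 85.8, 34.5 and 37.7 in pplCoA, and glutamatergic nuclei were above them in 3 of 6 replicates. A UMI of Pcsk1n was held by 12.6% of glutamatergic nuclei and 11.9% of microglia after thinning, and by 47.8% and 19.9% without it. In free RNA the mean of Cck was the lower in aplCoA (414 ± 44.9 against 511 ± 317) and that of Pcsk1n the higher (807 ± 170 against 711 ± 290), and their part in the domain differences was not tested.

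Of the other granins, Vgf had 17.5, 16.3 and 13.8 in aplCoA and 11.2, 6.90 and 6.91 in pplCoA, and Chga had 26.7, 21 and 16.8 against 16.0, 11.6 and 12.8. The domains were just separate for both, with log2 differences of 0.83 ± 0.18 (edgeR adjusted p = 0.0144) and 0.59 ± 0.16 (edgeR adjusted p = 0.0367). Both calls were lost with replicate 1 or 2 of aplCoA or replicate 2 or 3 of pplCoA left out, with adjusted p between 0.0544 and 0.151. Chgb had 98.0, 109 and 72.7 against 74.8, 59.0 and 57.7, which overlapped, and did not pass (0.46 ± 0.15, edgeR adjusted p = 0.0655).

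Pam had 240, 225 and 200 in aplCoA and 141, 145 and 133 in pplCoA, with no overlap and a log2 difference of 0.58 ± 0.08 (edgeR adjusted p = 0.00332). Leaving out each replicate in turn, the difference of Pam lay between 0.55 and 0.66 and passed every time. Cpe was the other way round, with 234, 242 and 251 in aplCoA and 290, 290 and 307 in pplCoA, also without overlap, a difference of -0.37 ± 0.07 (edgeR adjusted p = 0.00984) that was kept without any 1 replicate. Free RNA held Cpe at 489 ± 95.4 in aplCoA and 540 ± 80.2 in pplCoA, and Pam at 223 ± 28.2 and 204 ± 21, so that each mean was higher in the domain where the gene was called higher. Their part in these differences was not tested. The 3 convertases did not pass: the log2 differences were 0.24 for Pcsk1, -0.24 for Pcsk2 and -0.53 for Pcsk5 (edgeR adjusted p = 0.447, 0.231 and 0.17).

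**Figure D4:**
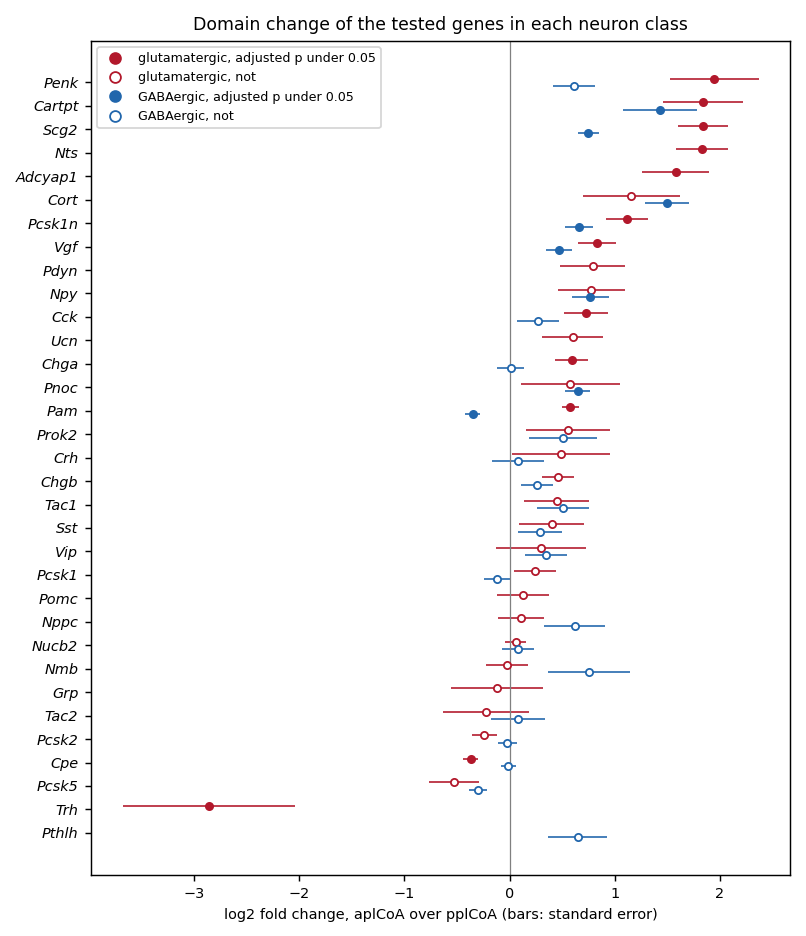
Log2 difference between domains (aplCoA minus pplCoA) with its standard error for each member gene that had enough counts to be tested, in glutamatergic and in GABAergic nuclei; filled points have an edgeR adjusted p under 0.05. Scg2 lies at 1.84 in glutamatergic and 0.75 in GABAergic nuclei, and Pam lies at 0.58 in glutamatergic and -0.35 in GABAergic nuclei.

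Measures of quality and of other cell types moved with the domains. In glutamatergic nuclei the median percentage of mitochondrial UMIs was 0.0144 to 0.0207 in aplCoA and 0.00824 to 0.0111 in pplCoA, and that of ribosomal genes 0.253 to 0.301 and 0.195 to 0.22. The 5 GABAergic markers summed to 170 to 212 in aplCoA and 41.8 to 119 in pplCoA, against 9017 to 11019 in GABAergic nuclei. Among the other marker lists, those of OPCs (119 to 130 in aplCoA and 137 to 197 in pplCoA), VLMCs (3.5 to 6.18 and 8.15 to 19.7) and endothelial cells (34.7 to 37.9 and 39 to 45.3) were higher in all pplCoA replicates. In GABAergic nuclei the mitochondrial percentages were 0.0206 to 0.0344 in aplCoA and 0.0149 to 0.0174 in pplCoA, and the ribosomal ones 0.351 to 0.386 and 0.271 to 0.31. There the markers of OPCs (306 to 347 in aplCoA and 397 to 450 in pplCoA) and newly formed oligodendrocytes (205 to 222 and 225 to 241) were higher in all pplCoA replicates, and those of astrocytes (121 to 134 and 113 to 116) and macrophages (1.82 to 4.53 and 1.01 to 1.76) in all aplCoA replicates. The other lists overlapped between domains in both classes. In glutamatergic nuclei that of ABCs summed to 2051 to 3346 in aplCoA and 2077 to 3264 in pplCoA. At such a level its overlap says little about RNA from ABCs. ABC nuclei numbered 409, 103 and 382 in the aplCoA replicates and 54, 49 and 51 in the pplCoA ones. Penk, called higher in aplCoA, had its highest mean in ABCs. The part of all these measures in the differences was not tested.

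The domains also differ in their vesicular glutamate transporters. Nuclei with more UMIs of Slc17a6 than of Slc17a7 (Slc17a6-led) made up 26%, 19.7% and 19.9% of glutamatergic nuclei in the 3 aplCoA replicates and 7.73%, 2.1% and 1.38% in pplCoA. Between Slc17a6-led and Slc17a7-led nuclei of the same replicates, 21 of 30 members tested passed, 15 higher in Slc17a6-led and 6 higher in Slc17a7-led nuclei. Of 17169 genes tested, 39.1% passed, with 19.6% of those tested higher in Slc17a6-led and 19.5% higher in Slc17a7-led nuclei, and the median log2 difference was 0.53 over the members and 0.01 over all genes. Scg2 had a lowest, median and highest replicate of 22.9, 71.8 and 126 in Slc17a6-led and 8.79, 18 and 31.4 in Slc17a7-led nuclei, a log2 difference of 1.84 ± 0.07 (edgeR adjusted p = 2.5e-10). Pam had 120, 393 and 426 against 115, 136 and 175, a difference of 1.13 ± 0.16 (edgeR adjusted p = 5.83e-05). The ranges of the groups overlapped for both genes across replicates, but both groups come from the same pools. Within every replicate Scg2 was higher in Slc17a6-led nuclei. So was Pam, except in pplCoA replicate 3 (120 against 131), which had 31 Slc17a6-led nuclei. The precursors Cartpt (2.54), Adcyap1 (2.17), Tac1 (1.86), Penk (1.66), Crh (1.63), Prok2 (1.49), Cck (1.13), Nts (0.86) and Sst (0.83) were higher in Slc17a6-led nuclei on the log2 scale. So were Vgf (1.19), Chga (1.06), Pcsk1n (0.79) and Pcsk1 (0.45). Of these, Sst, Crh and Pcsk1n had a mean in all glutamatergic nuclei under that of microglia (7.56 against 25.3, 0.54 against 0.792 and 62.3 against 63.8). The others had a mean above it. Ucn (-2.05), Pcsk5 (-1.08), Nppc (-1.01), Chgb (-0.78), Cpe (-0.56) and Pcsk2 (-0.49) were higher in Slc17a7-led nuclei. Nppc did not pass without aplCoA replicate 1 or 3 (edgeR adjusted p = 0.0639 and 0.0594), nor Ucn without aplCoA replicate 3 (edgeR adjusted p = 0.0695). Ucn had 7 UMIs over the Slc17a6-led and 129 over the Slc17a7-led sums, and Nppc had 38 and 363. Both met the count filter only through Slc17a7-led nuclei, where they were higher.

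Within Slc17a7-led nuclei alone, 8 of 32 members passed between domains, 7 with the higher level in aplCoA and 1 in pplCoA, where 7.54% of 18371 genes passed, with aplCoA the higher in 3.41% and pplCoA in 4.14%. Scg2 had 31.4, 25.6 and 22 in aplCoA and 13.9, 8.79 and 9.52 in pplCoA, without overlap, a log2 difference of 1.25 ± 0.18 (edgeR adjusted p = 0.012). Penk (1.77), Nts (1.66), Cartpt (1.5), Ucn (1.19), Pcsk1n (0.84), Chgb (0.62) and Cpe (-0.26) also passed. Ucn had 0.77, 0.948 and 0.997 in aplCoA and 0.444, 0.308 and 0.348 in pplCoA, from 129 UMIs in all. Pam no longer passed (0.23, edgeR adjusted p = 0.297), with 161, 175 and 129 against 115, 141 and 131, which overlapped. Of the other calls in all glutamatergic nuclei, Adcyap1 (0.86), Vgf (0.41), Cck (0.28), Chga (0.25) and Trh (-2.74) did not pass here either (edgeR adjusted p = 0.0783, 0.213, 0.511, 0.395 and 0.0825), which makes 6 of 12.

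In GABAergic nuclei, 8 of the 26 members tested passed between domains, 7 with the higher level in aplCoA and 1 in pplCoA. Of 14735 genes tested, 7.18% passed, with aplCoA the higher in 3.09% and pplCoA in 4.09%, and the median log2 difference was 0.41 over the members and 0.01 over all genes. Higher in aplCoA were the precursors Cort, Cartpt, Npy and Pnoc, the granins Scg2 and Vgf, and Pcsk1n. Pam was higher in pplCoA. Pdyn, Nts, Adcyap1, Trh, Gal, Grp, Oxt, Avp, Pomc, Ucn and Edn3 had too few UMIs to be tested there. Without aplCoA replicate 1 the count was 4, without pplCoA replicate 2 it was 5, and with aplCoA replicate 1 taken from its library 1 alone it was 2, which were Scg2 and Pam. The shares of all genes that passed in these fits are not given either.

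Cort, the precursor of cortistatin, had 10.1, 13.3 and 10.9 in aplCoA and 4.17, 3.02 and 3.84 in pplCoA, a log2 difference of 1.5 ± 0.21 (edgeR adjusted p = 0.00108). Pnoc had 36.1, 40.4 and 37.1 against 21.6, 22.7 and 25.4, a difference of 0.65 ± 0.12 (edgeR adjusted p = 0.00346). Scg2 had 76.7, 63.9 and 63.5 against 41, 35.3 and 41, a difference of 0.75 ± 0.10 (edgeR adjusted p = 0.00105). The replicates of each domain lay close together and the domains did not overlap for these 3 genes, which also passed without any 1 replicate. With aplCoA replicate 1 from library 1 alone, Cort and Pnoc had adjusted p of 0.101 and 0.0941.

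Npy had 48.5, 50 and 52.6 in aplCoA and 18.1, 31.5 and 39.0 in pplCoA, a log2 difference of 0.77 ± 0.18 (edgeR adjusted p = 0.0162). The aplCoA replicates lay close together and the pplCoA ones were spread, and without aplCoA replicate 1 the adjusted p was 0.064. Npy did not pass with DESeq2 (0.72, adjusted p = 0.206) or with aplCoA replicate 1 from library 1 alone (0.56, edgeR adjusted p = 0.273). Cartpt had 3.60, 3.65 and 3.16 against 1.76, 0.696 and 0.808, a difference of 1.43 ± 0.35 (edgeR adjusted p = 0.0188). It did not pass with replicate 1 of aplCoA or replicate 2 or 3 of pplCoA left out (edgeR adjusted p = 0.0886, 0.0855 and 0.0758). Nor did it pass with classes from marker UMIs (0.99, edgeR adjusted p = 0.255) or with aplCoA replicate 1 from library 1 alone (1.35, edgeR adjusted p = 0.069). Vgf had 39.9, 38.1 and 32.1 against 27.1, 21.8 and 27.3, a difference of 0.47 ± 0.12 (edgeR adjusted p = 0.0281). The call was lost with replicate 1 or 2 of aplCoA or replicate 2 of pplCoA left out (edgeR adjusted p = 0.166, 0.0823 and 0.135). It was also lost with the replicate number as a block and with classes from marker UMIs (edgeR adjusted p = 0.0543 and 0.0666). Library 1 or library 2 alone of aplCoA replicate 1 lost it too (edgeR adjusted p = 0.332 and 0.0655). Pcsk1n had 147, 147 and 109 against 69.8, 75.6 and 102, a difference of 0.66 ± 0.13 (edgeR adjusted p = 0.00563), with an adjusted p of 0.0501 without aplCoA replicate 1. In free RNA, Npy was at 65.9 ± 6.28 in aplCoA and 83.8 ± 43.8 in pplCoA, Pnoc at 22.3 ± 2.72 and 24.9 ± 12.6, and Cort at 12.6 ± 0.865 and 9.08 ± 1.86, so that the means of Npy and Pnoc there were not higher in aplCoA. In microglia, Npy was at 13.4, 5.02 and 6.7 in aplCoA and 9.32, 2.59 and 0 in pplCoA, Pnoc at 4.35, 0 and 0 and 6.06, 2.59 and 0.878, and Cort at 3.01, 2.01 and 0 and 0.932, 0.862 and 0, all of which overlapped. The free RNA means of Cort, Cartpt and Scg2, given above, were higher in aplCoA, as were those of Pcsk1n (807 ± 170 and 711 ± 290) and Vgf (83.6 ± 29.5 and 67.2 ± 25.3), and their part was not tested. The mean level of Cartpt was 2.28 in GABAergic nuclei and 1.52 in microglia. In none of the genes Npy, Cartpt, Vgf and Pcsk1n did the domains overlap, although pplCoA replicate 3 lay close to aplCoA replicate 3 for Pcsk1n.

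Pam had 600, 615 and 626 in aplCoA and 707, 802 and 751 in pplCoA. All pplCoA replicates were above all aplCoA ones, the opposite order to that in glutamatergic nuclei, and the log2 difference was -0.35 ± 0.07 (edgeR adjusted p = 0.00839), with an adjusted p of 0.0609 without pplCoA replicate 2. Sst and Vip did not pass. Sst had 128, 152 and 164 in aplCoA and 66.9, 123 and 166 in pplCoA, and Vip had 239, 199 and 276 against 107, 187 and 254, with log2 differences of 0.29 and 0.35 (edgeR adjusted p = 0.49 and 0.353). Both overlapped between domains, and pplCoA replicate 1 was the lowest sample for each. Penk (0.61) and Pcsk5 (-0.30) did not pass either (edgeR adjusted p = 0.0788 and 0.052), and Chga and Cpe differed by 0.01 and -0.01 (edgeR adjusted p = 0.975 and 0.971).

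The GABAergic clusters differed in share between domains, with 14.3% ± 3.05 of aplCoA and 25.3% ± 4.4 of pplCoA GABAergic nuclei in the Adra1b-led cluster and 19.8% ± 3.93 and 7.52% ± 4 in the Hs3st5-led cluster. The values were therefore read within each of the 6 GABAergic clusters and 5 glutamatergic clusters that had at least 20 nuclei in every replicate. These clusters hold nuclei of the same 6 replicates as the tests above, so they do not repeat those tests independently. The Ccbe1-led cluster was among the glutamatergic ones, with 21 nuclei in each of pplCoA replicates 2 and 3. How often genes in general separated the domains within clusters was not counted. Scg2 had a higher mean in aplCoA in all 11 clusters, and all aplCoA replicates were above all pplCoA ones in 5 of 6 GABAergic and 2 of 5 glutamatergic clusters. In the Nxph2-led cluster Scg2 had 98.7, 87.4 and 77.6 in aplCoA and 48.3, 34.9 and 56.4 in pplCoA. Pcsk1n had a higher mean in aplCoA in all 11 clusters too, with full separation in 4 of 6 and 4 of 5. Npy and Pnoc separated the domains in 4 of 6 GABAergic clusters each. In the Elfn1-led cluster Npy had 191, 204 and 185 in aplCoA and 60.9, 139 and 152 in pplCoA, and in the Kit-led cluster Pnoc had 101, 96.7 and 99.2 against 42.6, 50.9 and 74.8. Cort was separated only in the Nxph2-led cluster among the 6, with 22.1, 44.2 and 32.2 against 9.14, 4.03 and 9.85.

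Pam was higher on average in pplCoA in all 6 GABAergic clusters and fully separated in 3. Its means were 966 ± 26.7 in aplCoA and 1085 ± 63.4 in pplCoA in the Kit-led cluster, 793 ± 57 and 930 ± 40.1 in the Adra1b-led cluster and 561 ± 38.6 and 646 ± 13.7 in the Nxph2-led cluster. In glutamatergic clusters the aplCoA mean of Pam was higher in only 1 of 5, the Gm12536-led one, where the replicates had 79.5, 120 and 88.2 in aplCoA and 75.3, 65.6 and 58.7 in pplCoA. The aplCoA mean of Pam was lower in the other 4. All 5 clusters held Slc17a7 at 238 to 260 and Slc17a6 at no more than 22, so that clusters led by Slc17a6 were not read in this way. Nts separated the domains in 3 of 5 glutamatergic clusters, Cpe was higher in all pplCoA replicates in 2 of 5, and Penk was separated in none. Adcyap1 had a higher aplCoA mean in 1 of these 5 clusters, the Gm12536-led one, where the domains were separate, and was higher in all pplCoA replicates in the Matn2-led cluster, from 8 UMIs there. Cartpt had a higher aplCoA mean in 2 of 5 and was separated in none.

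**Figure D5:**
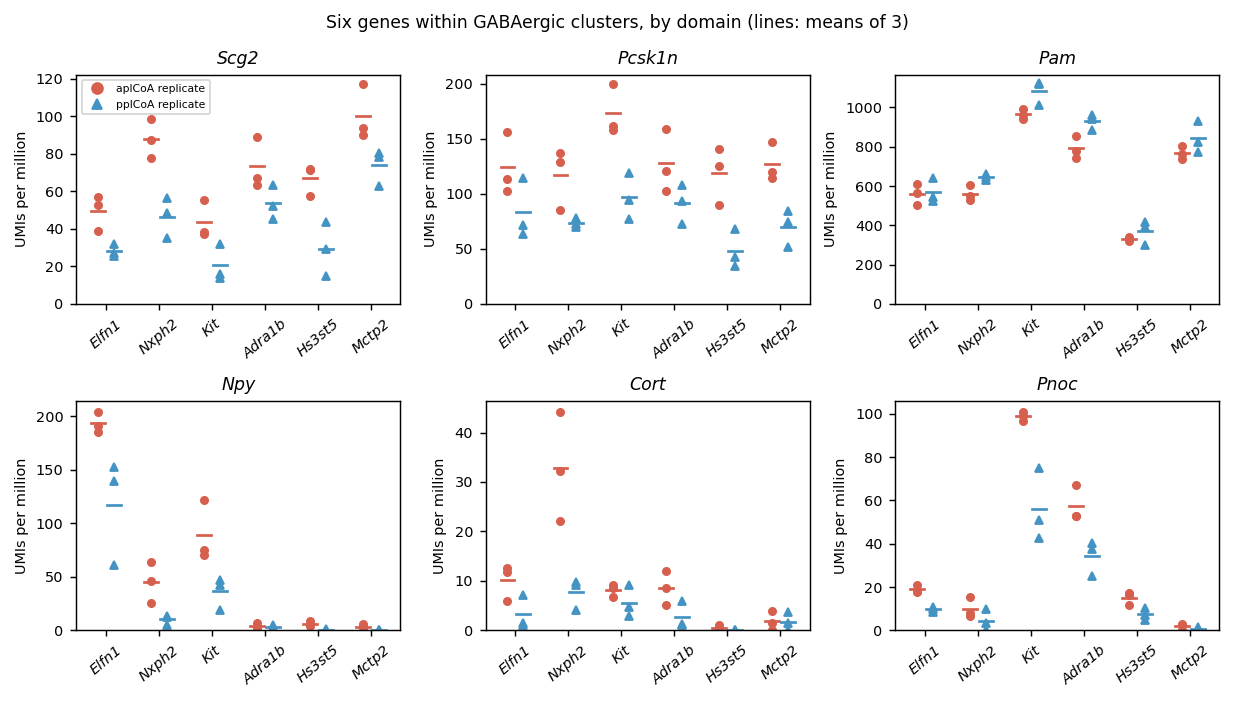
Level in CPM of Scg2, Pcsk1n, Pam, Npy, Cort and Pnoc within 6 GABAergic clusters named by a leading gene, with 1 point per replicate and a line for the mean of the 3 replicates of each domain. Scg2 and Pcsk1n have a higher mean in aplCoA in each cluster, and Pam has a higher mean in pplCoA in each.

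The difference between the 2 domain effects was tested directly, with both classes in a single edgeR fit. It passed for 5 of 33 members, 4 of them with a greater aplCoA minus pplCoA difference in glutamatergic nuclei and 1 with a lesser. Of 17952 genes, 3.41% passed, 2.52% greater and 0.891% lesser. The 33 include Pdyn, Nts, Adcyap1, Trh, Grp, Pomc and Ucn, which had too few UMIs for a domain test in GABAergic nuclei. Pthlh had too few in glutamatergic nuclei. For these genes the domain effect in that class rested on few UMIs. The difference of differences was 0.95 ± 0.09 for Pam (edgeR adjusted p = 0.000368), 1.11 ± 0.17 for Scg2 (edgeR adjusted p = 0.00468), 0.59 ± 0.12 for Chga (edgeR adjusted p = 0.0231), 0.48 ± 0.11 for Cck (edgeR adjusted p = 0.0351) and -0.34 ± 0.08 for Cpe (edgeR adjusted p = 0.0331). The median over the members was 0.14 and that over all genes 0.03. Pam and Scg2 passed without any 1 replicate, and Pam alone passed where the pool was not a block. Chga passed in 2 of the 6 fits that left out a replicate (those without aplCoA replicate 3 or pplCoA replicate 1), Cck in 2 (without aplCoA replicate 2 or pplCoA replicate 1) and Cpe in 1 (without pplCoA replicate 1), with adjusted p up to 0.148, 0.22 and 0.146. The count was 2 with replicate 1 of aplCoA or replicate 2 or 3 of pplCoA left out, 3 with replicate 2 or 3 of aplCoA left out, and 10 without pplCoA replicate 1. For these fits too, the shares of all genes that passed are not given.

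Other genes of the pathway were taken from lists. Of 23 genes of dense-core or other vesicles and their release, 2 were higher in aplCoA in glutamatergic nuclei and 1 in pplCoA. The 2 were Baiap3, a release factor of dense-core vesicles (1.17 on the log2 scale), and Syt11 (0.39), and the 1 was Ptprn2 (-0.26). In GABAergic nuclei 3 were higher in aplCoA (among them Sv2b, 0.61, and Syt4, 0.48) and 1 in pplCoA (Rab27b, -0.31). The medians were 0.08 and 0.03, where 16.0% and 7.18% of all genes passed. Of these 23, 8 were higher in glutamatergic and 8 in GABAergic nuclei, led by Sv2b (4.25), Slc30a3 (2.63) and Syt10 (2.57), and 14 were higher in Slc17a6-led and 5 in Slc17a7-led nuclei, led by Slc30a3 (-2.84), Baiap3 (2.09) and Rab27b (1.16), where 63.7% and 39.1% of all genes passed in these 2 comparisons. The domain change of Baiap3 was greater and that of Sv2b less in glutamatergic than in GABAergic nuclei (1.22 and -0.57). Of 26 other processing and peptide-cleaving enzymes, 23 were tested in glutamatergic nuclei and 3 were higher in aplCoA (the convertase Pcsk6, 1, the glutaminyl cyclase Qpct, 0.99, and Ctsl, 0.40), and 21 were tested in GABAergic nuclei, where 1 was higher in aplCoA (Ctsl, 0.52). In that list 6 were higher in glutamatergic and 11 in GABAergic nuclei (Qpct -1.64, the neprilysin gene Mme -1.39 and Ace -1), and 6 were higher in Slc17a6-led and 4 in Slc17a7-led nuclei (Pcsk6 2.18, Ace 1.67 and Qpct 1.54), again beside 63.7% and 39.1% of all genes, while none of 23 passed for the difference in domain change between classes by the quasi-likelihood test, with 7 at an unadjusted p under 0.05 and 2 called by edgeR's likelihood ratio test. Of 31 other precursor genes, 10 were tested in glutamatergic and 5 in GABAergic nuclei and none passed between domains by the quasi-likelihood test or by DESeq2, with 1 and 3 at an unadjusted p under 0.05 and 1 and 0 called by the likelihood ratio test. Of 7 of these precursors tested between the classes, 3 were higher in GABAergic than in glutamatergic nuclei (Edn1 -2.90, Cbln2 -2.60 and Cbln4 -1.20), and 1 of 6 tested was lower in Slc17a6-led nuclei (Cbln2 -0.80). Of the 3 marks of adjacent tissue, Fign was higher in aplCoA in glutamatergic and GABAergic nuclei (1.51 and 1.74), Etv1 was higher in pplCoA in glutamatergic nuclei (-1.11), and Sim1 did not pass in glutamatergic nuclei and had too few UMIs to be tested in GABAergic nuclei. Whether adjacent tissue has a part in the peptide differences was not tested.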

How the data were processed

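Nuclei were sequenced with the 10x Genomics 3′ kit after sorting. The authors aligned reads to mm10 with introns included (Cell Ranger 5.0.0 per the submitters' processing notes, although a file header names another release) and deposited unfiltered UMI counts per gene and barcode, without normalization. Barcodes were kept with at least 1000 genes, UMIs within 5 scaled median absolute deviations of the library median, and mitochondrial and ribosomal percentages within 5 interquartile ranges of the upper quartile. Scrublet scores were used to remove doublets at 1% per 1000 nuclei, in place of the study's callers. Nuclei were clustered without the member genes (5000 variable genes, 50 components, resolution 1.0; scanpy 1.11.5) and clusters named by markers. Counts were summed per class and replicate, kept at a mean of at least 10 UMIs, and tested with edgeR 4.0.16 in R 4.3.3 (TMM, quasi-likelihood, threshold 0.05). The fits were also run on simulated counts, whose outcome is not given here. The study's own filter, genes in 10% of nuclei, would drop rare peptides and was an alternative. Members and lists were chosen with earlier results of these data known. All members are accounted for, with full values for those called between domains or highest in a class, and of other lists at most the 3 called genes with the largest change are named. Replicate numbers were not shown to pair the pools.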

Additional observations from a re-analysis of the deposited data

Results flagged for a closer look

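Of the results, 5 stand out because the same comparison, aplCoA minus pplCoA, gave a different log2 change in glutamatergic than in GABAergic nuclei by an edgeR test of the difference itself. The change was greater in glutamatergic nuclei by 0.95 for Pam, by 1.11 for Scg2, by 0.59 for Chga and by 0.48 for Cck, and for Cpe the difference was -0.34. Pam was higher in aplCoA in glutamatergic nuclei and in pplCoA in GABAergic nuclei. Scg2 was higher in aplCoA in both, and Chga, Cck and Cpe passed in glutamatergic nuclei and not in GABAergic nuclei. Within Slc17a7-led nuclei alone Pam did not pass (0.23, edgeR adjusted p = 0.297). Its aplCoA mean was higher in 1 of the 5 glutamatergic clusters read. Chga, Cck and Cpe kept the call for the difference in 2, 2 and 1 of the 6 fits that left out a replicate. Scg2 lost it where the pool was not a block (edgeR adjusted p = 0.0736).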

How the results depend on the processing

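The 77 called results of single members were followed through 1054 alternatives in which the member was tested. Alternatives that left a member untested were not counted. Of the 1054, 950 kept their direction and their side of the threshold, 103 lost the call and 1 reversed. That was Cartpt between glutamatergic and GABAergic nuclei, with -0.16 where classes came from marker UMIs. In glutamatergic nuclei, 12 members were called between domains, and 5 to 15 with each replicate left out. At an adjusted p under 0.01 with a 1.5-fold change, by construction stricter, 3 were called. Where genes had to be seen in 10% of nuclei, 6 were called. That filter left Penk, Nts, Cartpt, Adcyap1 and Trh untested, and Cck was tested and lost the call (edgeR adjusted p = 0.0588). In GABAergic nuclei, 8 were called, against 13 with no low-count filter, which tests more genes, 4 at the stricter threshold, 2 with library 1 alone of aplCoA replicate 1, and 4 to 11 with each replicate left out. For the difference between classes, 5 were called, against 2 with doublets kept, and 2 to 10 with each replicate left out. The cause of the shifts with libraries and doublets was not tested. Between classes the count was 29 to 31 and between transporter groups 17 to 21 with each replicate left out. DESeq2 called 12 and 6 members between domains in glutamatergic and GABAergic nuclei. An alternative chosen after seeing the data, leaving out the Trp73-led cluster, also gave 12. The share of all genes that passed in each alternative is not given, here or below. These counts therefore do not set the members apart from other genes.

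The replicate numbers were not shown to pair the pools: deviations of same-numbered replicates correlated by 0.00718 to 0.0934 in glutamatergic and -0.0846 to 0.0323 in GABAergic nuclei. With the replicate number as a block, 13 and 7 members were called between domains. With no replicate block for the pool, 1 member was called for the difference between classes, 31 between classes and 21 between transporter groups. Counts limit the rare peptides: Gal, Oxt and Avp had under 100 UMIs over all classes.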
